A study of Homo sapiens with 6 samples.

Results

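The caspases CASP2, CASP4, CASP6, CASP8, CASP9 and CASP10 and the CASP2 adaptors CRADD and PIDD1 were described in BE(2)-C cells depleted of ACSS2. These 8 genes were matched by gene name among the 58735 features of a table of gene counts, and 7 of them were among the 16210 genes with enough counts to test. They were selected on this same comparison: CASP2 for its fall in the depleted cells and the others as its partners and relatives, with their values known. Their levels and fold changes are therefore given as a description, without p-values. Whether the fit over all genes called them is stated as part of that description and is no independent test of them.

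BE(2)-C is an established human cell line, labelled as neuroblastoma and as wild type. Messenger RNA was sequenced in 3 libraries of cells with a hairpin against ACSS2 (shACSS2) and in 3 libraries of cells with a non-silencing hairpin (NS). Both groups had been infected with a lentivirus and held under puromycin until stable lines were obtained, and no further treatment is listed. The titles write the depletion as siACSS2, and the protocol names a hairpin against ACSS2 but in another passage calls the stable line shNgBR, so the groups follow the titles. The number of hairpins and of independently selected lines is not stated in the labels, nor is it said that replicates are separate cultures. All p-values below therefore measure only the spread between these libraries, which may be technical.

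Caspases are proteases that cut their substrates after aspartate and are made as inactive precursors. Initiator caspases are switched on when a scaffold brings their precursors together: PIDD1 and the adaptor CRADD, also called RAIDD, do so for CASP2 in the PIDDosome, death receptors with FADD for CASP8 and CASP10, and APAF1 with cytochrome c for CASP9. Executioners such as CASP6 then cut the structural and nuclear proteins of the cell, while CASP4 senses bacterial lipopolysaccharide. The PIDDosome is known for responding to extra centrosomes, after which CASP2 cuts MDM2. Loss of CASP8 expression is a well-known feature of many neuroblastomas.

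Library totals ran from 16617885 to 20831599 counts. ACSS2, the acetyl-CoA synthetase that the hairpin targets, had 75, 84 and 110 counts in shACSS2 libraries, against 366, 387 and 438 counts in NS libraries. Its level averaged 5.32 ± 0.762 CPM (counts scaled to library size and TMM factors) in shACSS2 cells and 20.5 ± 0.324 CPM in NS cells (SD, n = 3 each), a log2 fold change of -1.94 (SE 0.145, adjusted p = 1.95e-06 by edgeR's quasi-likelihood test). Over all tested genes, 2776 passed this test at an adjusted p of 0.05, 17.1% of them, with 7.48% higher and 9.64% lower in shACSS2 cells. Without NS replicate 1 the test called 1018 genes and without NS replicate 3 it called 1151. The groups did not overlap in 36.3% of tested genes. The noradrenergic genes PHOX2A and TH, which mark most neuroblastoma lines, had 0 counts in every library, and MYCN, which is amplified in BE(2)-C, stood at 0.436 to 2.11 CPM. Of 10 adrenergic neuroblastoma markers, 5 reached a mean of 1 CPM, and their summed level was 41.7 to 48.5 CPM in shACSS2 and 37.3 to 44.0 CPM in NS libraries. Of 8 embryonic kidney markers, 6 did, with sums of 112 to 124 CPM in shACSS2 and 110 to 114 CPM in NS libraries. Among 5 mesenchymal neuroblastoma markers, 4 did, with sums of 71.0 to 83.2 CPM in shACSS2 and 87.5 to 95.2 CPM in NS libraries. FN1 made up most of these sums, at 53.5 CPM in shACSS2 and 70.6 CPM in NS cells. TWIST1, at 15.7 and 11.1 CPM, and PRRX1, at 6.61 and 5.78 CPM in the same order, went the other way. SNAI2 averaged 2.55 and 2.59 CPM and FOSL1 0.520 and 0.626 CPM, so the sums do not describe the set. Of the adrenergic markers, GATA3 averaged 21.8 CPM in shACSS2 and 20.3 CPM in NS cells. ISL1 averaged 18.5 and 13.0 CPM and HAND2 3.66 and 2.88 CPM, in the same order. Thus PHOX2A, TH and MYCN go against the neuroblastoma label, while other adrenergic markers were measured. The cells are called BE(2)-C here as the labels have it. The part of any difference from that label in the results was not tested. In RNA from whole cultures, fewer cells of a type and less RNA per cell cannot be told apart. The library shACSS2 replicate 1 stood apart from the other two of its group on the second principal component, at -30.0 against 23.8 and 14.2, and its deviations from the group mean ran with gene GC content at a Spearman correlation of -0.60, against 0.47 and 0.39.

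Of the 7 tested genes, edgeR called 2 lower, CASP2 and CRADD, and 5 were not called. The share called over all tested genes was 17.1%, and nothing is read from the count because the genes were chosen on this comparison. Their median log2 fold change was -0.06, against 0.00245 over all tested genes. The shACSS2 and NS libraries did not overlap for 3 of the 7, CASP2, CRADD and CASP9. The groups did not overlap in 36.3% of all tested genes, and nothing is read from this count either.

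CASP2 (ENSG00000106144) lies on the plus strand of chromosome 7 at 143288215 to 143307696 in GENCODE v29 on GRCh38, and its exons overlap no other annotated gene. It had 611, 607 and 635 counts in shACSS2 libraries, against 1866, 1781 and 2133 counts in NS libraries. In CPM these were 38.04, 37.1 and 35.6 in shACSS2 libraries and 106, 94.1 and 98.3 in NS libraries. Every shACSS2 library was far below every NS library, and the spread within each group was small beside the gap. CASP2 averaged 36.9 ± 1.26 CPM in shACSS2 cells and 99.6 ± 6.16 CPM in NS cells (SD, n = 3 each), so that its level was 2.70-fold higher in NS cells. The log2 fold change was -1.43 (SE 0.0987, 95% interval -1.64 to -1.22). It ranked 1 by p of all tested genes, which is why it was selected. By size, 262 called genes were at least 2-fold lower in shACSS2 cells, and 93 of them fell further than CASP2. Leaving out any 1 library gave log2 fold changes of -1.47 to -1.39.

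Of the PIDDosome adaptors, PIDD1 was not called, and CRADD was called lower with a smaller log2 fold change than CASP2. PIDD1 (ENSG00000177595, chromosome 11, 799179 to 809753, minus strand), the scaffold whose death domain recruits CRADD, had 608, 748 and 962 counts in shACSS2 libraries and 836, 833 and 1257 counts in NS libraries. Its level was 37.9, 45.7 and 53.9 CPM in shACSS2 libraries, against 47.6, 44.0 and 58.0 CPM in NS libraries. The groups overlapped, with means of 45.8 ± 8.01 CPM in shACSS2 cells and 49.9 ± 7.24 CPM in NS cells (SD, n = 3 each). The log2 fold change of PIDD1 was -0.12 (SE 0.135, 95% interval -0.41 to 0.16), an interval that holds 0. PIDD1 was the most GC-rich of the 8 genes, at 66.0% over its longest annotated transcript. It was lowest in the library that ran against GC content, shACSS2 replicate 1. The log2 fold change of PIDD1 was -0.0001 without that library, 0.0002 without NS replicate 3 and -0.0973 with a correction for GC content. The cause of these changes in PIDD1 was not tested. Its exons overlap RPLP2 over 107 bases and PANO1 over 12 bases on the opposite strand, 1.82% and 0.205% of their length, so reads there could belong to either gene if strand was not used.

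CRADD (ENSG00000169372, chromosome 12, 93677375 to 93894840, plus strand), the adaptor whose CARD domain holds CASP2, had the lowest CPM of the 7 tested genes in both groups. It had 83, 71 and 70 counts in shACSS2 libraries, against 114, 138 and 138 counts in NS libraries. In CPM it stood at 5.17, 4.34 and 3.92 in shACSS2 libraries and at 6.49, 7.29 and 6.36 in NS libraries. All shACSS2 libraries were below all NS libraries, by a narrower gap than for CASP2. The means were 4.48 ± 0.635 CPM in shACSS2 cells and 6.71 ± 0.503 CPM in NS cells (SD, n = 3 each), with a log2 fold change of -0.59 (SE 0.182, 95% interval -0.97 to -0.20). The call of CRADD ended without NS replicate 1 (log2 fold change -0.61), NS replicate 2 (-0.53), NS replicate 3 (-0.63), shACSS2 replicate 2 (-0.56) or shACSS2 replicate 3 (-0.49), and it was kept without shACSS2 replicate 1 (-0.70).

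The balance between CASP2 and its adaptors can be read within a library as a ratio of counts, which no scaling between libraries can alter. CASP2 had 1.00, 0.811 and 0.660 counts for each PIDD1 count in shACSS2 libraries, against 2.23, 2.14 and 1.70 in NS libraries. Likewise, CASP2 had 7.36, 8.55 and 9.07 counts for each CRADD count in shACSS2 libraries, against 16.4, 12.9 and 15.5 in NS libraries. Both ratios were lower in every shACSS2 library than in any NS library. CASP2 was selected for its fall in this comparison, so lower ratios follow largely from that choice and are no separate result. These ratios are not corrected for gene length and give no stoichiometry.

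**Figure D1:**
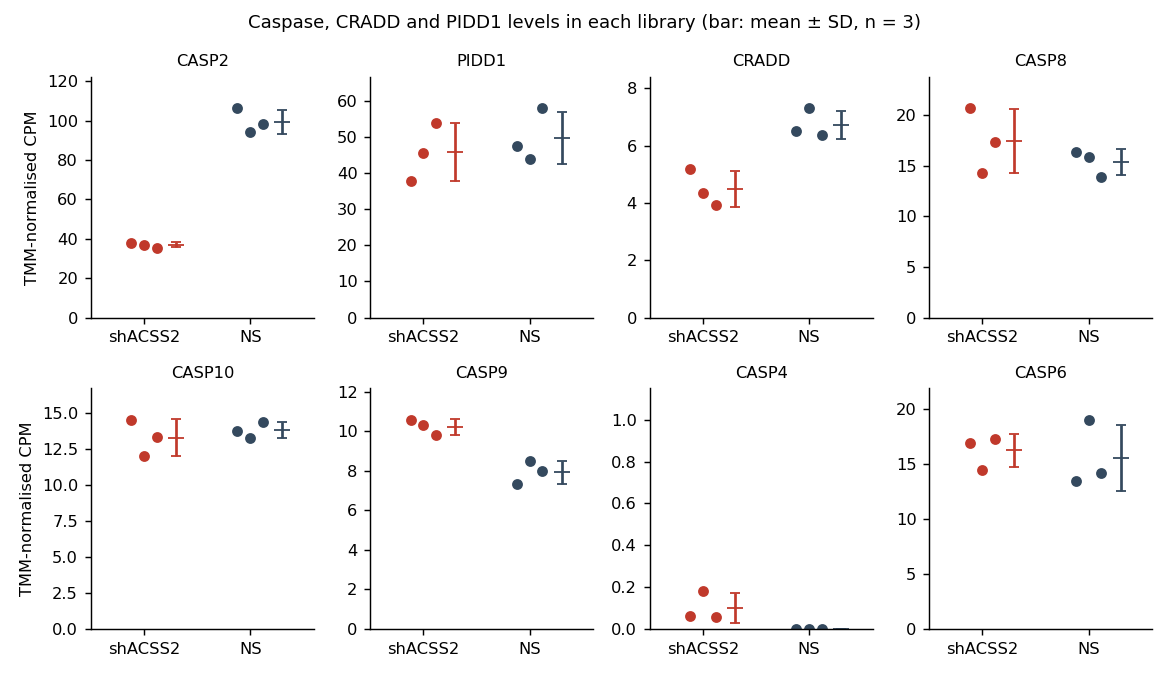
TMM-normalised CPM of the 8 genes in each library, with shACSS2 left of NS in each panel; points are libraries and bars are means ± SD (n = 3). CASP2 lies at 35.6 to 38.04 CPM in shACSS2 and 94.1 to 106 CPM in NS libraries, CRADD is also separated, and the points of CASP4 lie at or next to 0.

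The death receptor initiators CASP8 and CASP10 are neighbours on chromosome 2, both on the plus strand. CASP8 (ENSG00000064012, 201233443 to 201287711), which is activated by FADD below FAS and the TRAIL receptors, had 20.7, 14.3 and 17.4 CPM in shACSS2 libraries and 16.4, 15.9 and 13.9 CPM in NS libraries. CASP10 (ENSG00000003400, 201182881 to 201229406), its close relative, had 14.5, 11.99 and 13.3 CPM in shACSS2 libraries and 13.7, 13.3 and 14.4 CPM in NS libraries. The groups overlapped for both genes. CASP8 averaged 17.4 ± 3.18 CPM in shACSS2 cells and 15.4 ± 1.33 CPM in NS cells (SD, n = 3 each), with a log2 fold change of 0.18 (SE 0.146, 95% interval -0.12 to 0.49). For CASP10 the means were 13.3 ± 1.26 CPM in shACSS2 cells and 13.8 ± 0.565 CPM in NS cells (SD, n = 3 each), and the log2 fold change was -0.06 (SE 0.132, 95% interval -0.34 to 0.22). CASP8 messenger RNA was thus measured in every library, at 234 to 332 counts in shACSS2 and 288 to 301 counts in NS. The count of CASP10 for each CASP8 count was 0.702, 0.838 and 0.768 in shACSS2 libraries, against 0.837, 0.837 and 1.04 in NS libraries, which overlap.

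CASP9 (ENSG00000132906, chromosome 1, 15490832 to 15526534, minus strand), the initiator of the apoptosome, had 170, 169 and 175 counts in shACSS2 libraries, against 129, 161 and 173 counts in NS libraries. After normalisation these were 10.6, 10.3 and 9.80 CPM in shACSS2 libraries and 7.34, 8.51 and 7.98 CPM in NS libraries. Every shACSS2 library was above every NS library, although the raw counts overlap. The means were 10.2 ± 0.401 CPM in shACSS2 cells and 7.94 ± 0.582 CPM in NS cells (SD, n = 3 each), with a log2 fold change of 0.36 (SE 0.146, 95% interval 0.06 to 0.67). CASP9 was not called over all tested genes, where 36.3% of genes had groups that did not overlap. Its exons overlap CELA2B over 106 bases on the opposite strand, 2.01% of their length.

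CASP6 (ENSG00000138794, chromosome 4, 109688622 to 109703583, minus strand), an executioner that cuts nuclear lamins, had 16.9, 14.5 and 17.3 CPM in shACSS2 libraries, against 13.5, 19.02 and 14.2 CPM in NS libraries. NS replicate 2 was the highest library and NS replicate 1 the lowest, so the groups overlapped. The means were 16.2 ± 1.53 CPM in shACSS2 cells and 15.6 ± 3.02 CPM in NS cells (SD, n = 3 each), with a log2 fold change of 0.06 (SE 0.149, 95% interval -0.25 to 0.38). The exons of CASP6 overlap MCUB over 105 bases on the opposite strand, 5.40% of their length. CASP4 (ENSG00000196954, chromosome 11, 104942866 to 104969436, minus strand), the inflammatory caspase, had 1, 3 and 1 counts in shACSS2 libraries and 0, 0 and 0 counts in NS libraries. A count of 0 over the NS group allows up to 0.0528 CPM (3 counts), and at this depth CASP4 was close to undetected in both groups, so no fold is given. At the depth of these libraries 3 counts are 0.144 to 0.181 CPM, and these floors cover counting error only.

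**Figure D2:**
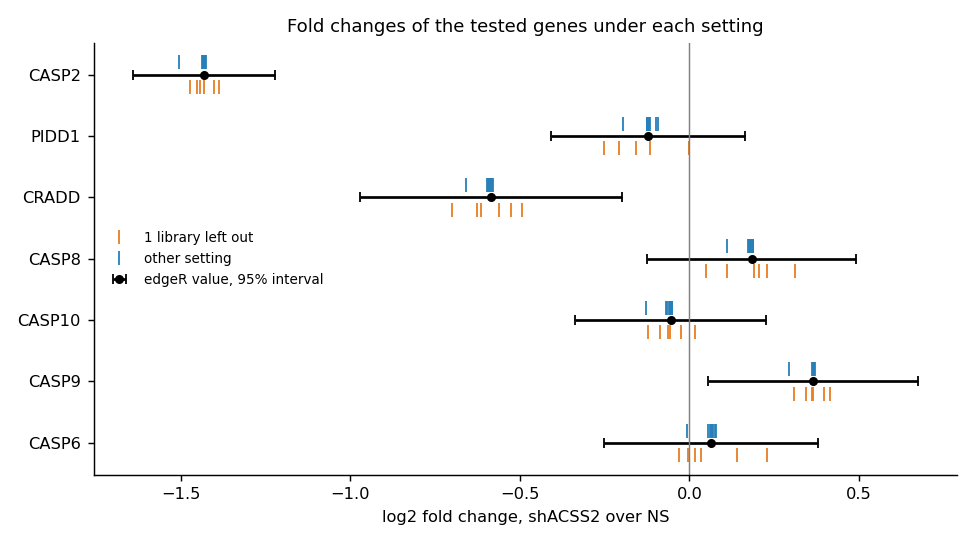
Log2 fold changes of shACSS2 over NS for the 7 tested genes; black points with bars are edgeR values with 95% intervals, orange ticks leave out 1 library each and blue ticks change another processing choice. The ticks of CASP2 stay between -1.51 and -1.39, while those of PIDD1, CASP10 and CASP6 reach 0 or cross it.

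Levels were compared between genes per kilobase of the union of annotated exons. In NS cells CASP2 stood highest at 12.4 ± 0.768 CPM per kb, followed by PIDD1 at 8.49 ± 1.23 and CASP6 at 8.01 ± 1.55 CPM per kb (SD, n = 3 each), and PIDD1 and CASP6 overlapped. CASP8 at 2.12 ± 0.183, CASP10 at 1.81 ± 0.0743, CRADD at 1.57 ± 0.118 and CASP9 at 1.51 ± 0.110 CPM per kb followed in NS cells, and CRADD and CASP9 overlapped. In shACSS2 cells CASP2 stood at 4.60 ± 0.156 CPM per kb, below CASP6 at 8.36 ± 0.786 and PIDD1 at 7.81 ± 1.36 CPM per kb, which overlapped each other. The order of CASP2 against PIDD1 and CASP6 on this scale thus differed between the groups. CASP2 was selected for its fall, so this change of order follows largely from that choice and is no separate result. Below CASP2 in shACSS2 cells were CASP8 at 2.41 ± 0.439, CASP9 at 1.94 ± 0.0761, CASP10 at 1.75 ± 0.166 and CRADD at 1.05 ± 0.148 CPM per kb. The ranges of CASP8 and CASP9, and of CASP9 and CASP10, overlapped there. Per kilobase of the longest annotated transcript, CASP2 at 6.40 CPM per kb and CASP8 at 5.95 CPM per kb overlapped in shACSS2 cells, and CRADD stood at 3.05 CPM per kb in shACSS2 and 4.57 CPM per kb in NS cells, above CASP9 and CASP10. Which transcripts the cells used was not measured, so the order of neighbours depends on the length chosen.

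**Figure D3:**
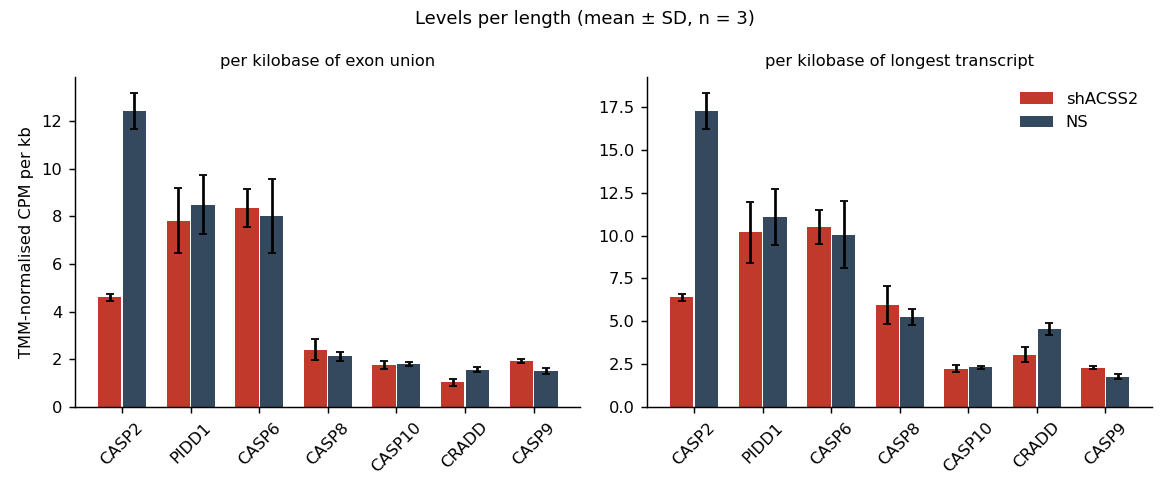
TMM-normalised CPM per kilobase of the 7 tested genes (bars are means, error bars SD, n = 3), with the union of exons in the left panel and the longest transcript in the right one. CASP2, which was selected for its fall, is the tallest bar among NS cells in both panels, and in shACSS2 cells it lies below PIDD1 and CASP6.

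Among the caspases outside the 8 genes, the inflammatory caspase CASP1 had 2 counts in all, and CASP5, CASP12 and CASP14 had 0.

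The 3′ untranslated regions (UTRs) were searched on the transcript strand for the letters ATGCTCAA. These letters were picked in an earlier analysis of these same fold changes, so the matches are a description and no test. Windows of at most 30 bases around matches of at least 7 letters are shown for CASP2 (3 of its 4 matches) and CRADD, the genes called lower, 5′ to 3′ with the match in capitals, taken from the GENCODE v29 transcript with the longest annotated UTR.
CASP2 site 1, chr7:143304714-143304743, plus strand: catcgaggctctTGCTCAAgtgttttctga
CASP2 site 2, chr7:143306070-143306099, plus strand: ggatcatgtaaATGCTCAAagatgtaatgt
CASP2 site 3, chr7:143307521-143307550, plus strand: tagtagtcaaggTGCTCAAtaaatatttgt
CRADD site 1, chr12:93894327-93894356, plus strand: ctaaacctacaATGCTCAgatggcccctaa

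The 4 CASP2 matches start at positions 625, 1825, 3276 and 3421 of a UTR of 3438 bases, and the second holds all 8 letters. The single CRADD match starts at position 222 of 610 bases. Genes that were not called hold such letters too: CASP10 has 1 match of 7 letters in 4574 bases and CASP9 has 1 in 2952 bases.
CASP10 site 3, chr2:201219958-201219987, plus strand: ttgatatgtgaATGCTCAtaaaaaaatgtc
CASP9 site 2, chr1:15493150-15493179, minus strand: tttaagccctccTGCTCAAagaggctgcag

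These windows are shown because CASP10 and CASP9 carry 7 letters without a call. No TGCTCA stands in the annotated UTRs of PIDD1, CASP8, CASP4, CASP6 or ACSS2, which span 123, 1117, 113, 708 and 748 bases. Of the 8 genes, 4 hold at least 7 letters. Among them is CASP9, whose CPM was higher in each shACSS2 library, although its raw counts overlapped and it was not called. Over 13262 tested genes with a UTR of at least 50 bases, 17.95% hold at least 7 letters and 2.59% hold all 8. Genes with 8 letters had a median UTR of 3704 bases, against 898 bases for genes without TGCTCA, and the part of UTR length in these shares was not tested. None of 2545 mature human microRNAs in the RefSeq table has the seed UGAGCAU or the shorter UGAGCA at bases 2 to 7. This says only that these seeds, which pair with ATGCTCA and TGCTCA, are absent there. A seed that pairs with all 7 letters of TGCTCAA was not searched for.

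**Figure D4:**
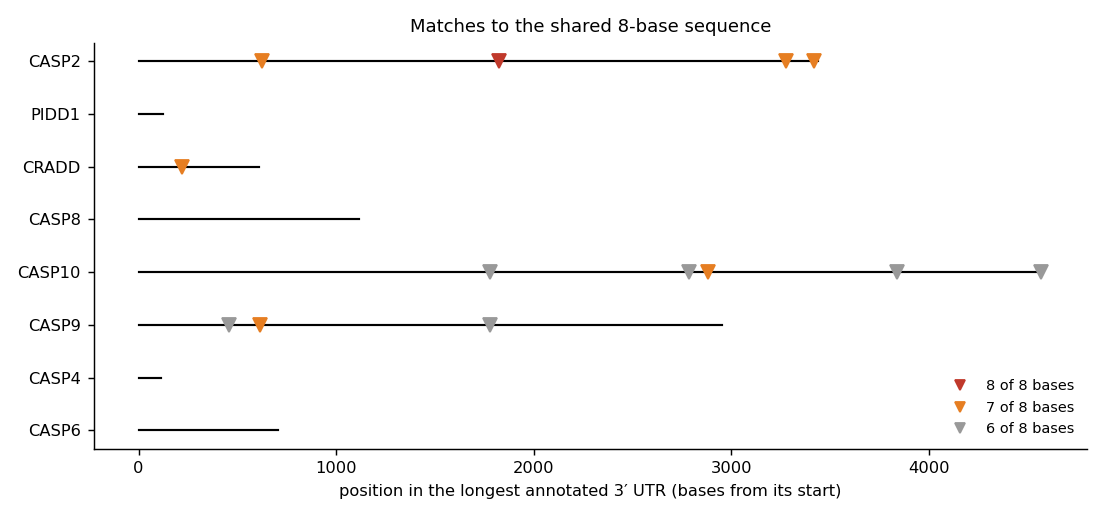
Positions of TGCTCA matches along the longest annotated UTR of the 8 genes (black lines; bases from the UTR start); triangles are coloured by how many of the 8 letters of ATGCTCAA match. CASP2 carries 4 matches of 7 or 8 letters and CRADD 1, and PIDD1, CASP8, CASP4 and CASP6 carry none.

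The genes whose levels over the 6 libraries were most like those of CASP2 were taken from 11894 genes averaging 5 CPM or more, by the Euclidean distance between profiles of log2(CPM + 0.5) centred on the NS mean. The nearest were CREB3L2, a transcription factor of the secretory pathway, at 0.224, and RHOQ, a small GTPase also called TC10, at 0.243. NHSL2 followed at 0.312, LRRC8D, a subunit of volume-regulated anion channels, at 0.343, and N4BP2 at 0.352, against a median distance of 2.51 over all genes compared. CREB3L2 averaged 42.6 CPM in shACSS2 and 108 CPM in NS cells, and RHOQ averaged 19.1 CPM in shACSS2 and 52.4 CPM in NS cells. Since a distance of this kind selects genes with the same fold change, their fall is no separate result.

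The remaining pathway was read from 6 lists of 64 genes outside the 8, of which 44 could be tested. Genes that stand in more than 1 list count once in these totals. Of these, 6 rose and 6 fell (edgeR, adjusted p at most 0.05) and 32 were not called, where 7.48% of all tested genes were called higher and 9.64% lower. The median log2 fold change of the 44 genes was -0.05, against 0.00245 over all tested genes, and 22 of the 44 had groups that did not overlap, against 36.3% of all tested genes. The other 20 genes had at most 19 counts summed over the shACSS2 libraries and at most 25 over the NS libraries. Without NS replicate 1 or without NS replicate 3, 6 of the 44 genes were called. The same shares over all tested genes, 7.48% higher and 9.64% lower, belong beside the counts of each list below. The lists were written with earlier results known, so nothing is read from those counts.

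Of 13 partners, activators and substrates of CASP2, all were tested, 1 rose, 2 fell and 10 were not called, with a median log2 fold change of -0.06. ANKRD26, which anchors PIDD1 at the distal appendages of the mother centriole, had 15.6, 14.2 and 12.3 CPM in shACSS2 libraries, against 23.2, 19.2 and 23.5 CPM in NS libraries. Its log2 fold change was -0.65 (SE 0.135, adjusted p = 0.00485 by edgeR). The appendage genes CEP83, at 0.06 (SE 0.121), and SCLT1, at 0.07 (SE 0.151), were not called. MDM2, the ubiquitin ligase that CASP2 cuts, at -0.21 (SE 0.104, adjusted p = 0.169 by edgeR), and CDKN1A, the p21 cell cycle inhibitor, at -0.31 (SE 0.118, adjusted p = 0.0766 by edgeR), did not pass the test. NPM1, the nucleolar protein of a further PIDDosome, averaged 2758 ± 112 CPM in shACSS2 cells and 1963 ± 98.1 CPM in NS cells (SD, n = 3 each), a log2 fold change of 0.49 (SE 0.0882, adjusted p = 0.00201 by edgeR). NPM1 has many pseudogenes that can share its reads, so its level is uncertain. BID, a CASP2 and CASP8 substrate that carries the signal to mitochondria, was at 0.13 (SE 0.103) and was not called.

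In the death receptor arm, 9 of 13 listed genes were tested, with 1 higher, 0 lower and 8 not called, and a median log2 fold change of 0.20. None of these genes was lower at an unadjusted edgeR p of 0.05 either (0 of 9), and DESeq2 and limma voom each called 0 lower. FAS, the receptor of FAS ligand, had 19.7, 13.9 and 12.3 CPM in shACSS2 libraries, against 9.17, 12.3 and 9.96 CPM in NS libraries. The highest shACSS2 library was replicate 1, and shACSS2 replicate 3 lay next to NS replicate 2. FAS averaged 15.3 ± 3.93 CPM in shACSS2 cells and 10.5 ± 1.61 CPM in NS cells (SD, n = 3 each), a log2 fold change of 0.55 (SE 0.177, adjusted p = 0.0453 by edgeR). Leaving out NS replicate 1 (log2 fold change 0.46), NS replicate 3 (0.51) or shACSS2 replicate 1 (0.32) ended that call of FAS. The adaptor FADD was at 0.03 (SE 0.157) and the CASP8 inhibitor CFLAR at -0.04 (SE 0.111), and neither was called. FASLG had 0 counts, and TNFRSF10A, TNFSF10 and RIPK3, the kinase of necroptosis, had too few counts to test.

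Around CASP9, 9 of 11 apoptosome genes and inhibitors of apoptosis were tested, with 3 higher, 2 lower and 4 not called. The shares over all tested genes were 7.48% higher and 9.64% lower. The median log2 fold change of the 9 genes was 0.09. Both genes of the scaffold itself were not called, with APAF1 at -0.30 (SE 0.117, adjusted p = 0.0834 by edgeR) and CYCS, which encodes cytochrome c, at 0.09 (SE 0.149, adjusted p = 0.714 by edgeR). XIAP, which binds and blocks CASP9 and executioner caspases, averaged 98.0 ± 3.54 CPM in shACSS2 cells and 120 ± 5.30 CPM in NS cells (SD, n = 3 each), a log2 fold change of -0.30 (SE 0.0917, adjusted p = 0.0369 by edgeR). HTRA2, a mitochondrial protease that binds XIAP, averaged 34.9 ± 2.61 CPM in shACSS2 cells and 27.7 ± 1.62 CPM in NS cells (SD, n = 3 each), a log2 fold change of 0.33 (SE 0.110, adjusted p = 0.0477 by edgeR). The calls of XIAP and HTRA2 each ended without any 1 of the NS libraries or without shACSS2 replicate 2 or 3, at log2 fold changes of -0.32 to -0.26 for XIAP and 0.28 to 0.38 for HTRA2. BIRC6, a very large ubiquitin ligase that acts on caspases, averaged 69.9 ± 6.55 CPM in shACSS2 cells and 101 ± 11.6 CPM in NS cells (SD, n = 3 each), a log2 fold change of -0.53 (SE 0.109, adjusted p = 0.0047 by edgeR). BIRC5, the mitotic protein survivin, rose by 0.44 on the log2 scale (SE 0.109, adjusted p = 0.0129 by edgeR), and its call ended without NS replicate 1 (0.43) or NS replicate 3 (0.34). BIRC3, a ubiquitin ligase of the TNF pathway, had 5.48, 2.51 and 3.86 CPM in shACSS2 libraries, against 1.88, 2.11 and 1.94 CPM in NS libraries. Its log2 fold change was 1.00 (SE 0.279, adjusted p = 0.0236 by edgeR), and leaving out NS replicate 1 (0.96), NS replicate 3 (0.98) or shACSS2 replicate 1 (0.69) ended the call.

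In the arm of CASP4, 4 of 16 listed genes had enough counts to test, and edgeR called 0 of them. DESeq2 and limma voom each called 0 too, and at an unadjusted edgeR p of 0.05 there was 1, CARD8. The 2 with the smallest p were CARD8, an inflammasome sensor, at -0.32 (SE 0.114, adjusted p = 0.0645 by edgeR) and IL18, a cytokine that inflammatory caspases mature, at 0.70 (SE 0.364, adjusted p = 0.197 by edgeR). CARD8 stood at 19.3 CPM in shACSS2 cells and 24.1 CPM in NS cells, and IL18 at 1.18 CPM in shACSS2 cells and 0.722 CPM in NS cells. The pore-forming substrate GSDMD had 0, 5 and 3 counts in shACSS2 libraries and 0, 1 and 1 counts in NS libraries, and the inflammasome adaptor PYCARD had 0 in all.

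All 11 executioners and substrates listed around CASP6 were tested, with 1 higher, 2 lower and 8 not called, and a median log2 fold change of -0.15. DFFA, the inhibitor of the nuclease that cuts DNA in apoptosis, had 239, 234 and 235 CPM in shACSS2 libraries, against 168, 167 and 163 CPM in NS libraries. Its log2 fold change was 0.51 (SE 0.0871, adjusted p = 0.00137 by edgeR), while DFFB, the nuclease it holds, was at -0.27 (SE 0.136, adjusted p = 0.187 by edgeR). ROCK1, a kinase that caspases activate during membrane blebbing, averaged 107 ± 2.73 CPM in shACSS2 cells and 131 ± 11.5 CPM in NS cells (SD, n = 3 each), a log2 fold change of -0.30 (SE 0.0964, adjusted p = 0.0446 by edgeR). ROCK1 lost its call on leaving out NS replicate 1 (-0.29) or 3 (-0.24), or shACSS2 replicate 2 (-0.29) or 3 (-0.32). The lamin gene LMNA, a CASP6 substrate, was at 0.32 (SE 0.110, adjusted p = 0.0581 by edgeR), and PARP1 was at -0.14 (SE 0.0959, adjusted p = 0.347 by edgeR). Of the pathway genes called lower, 4 of 6 hold at least 7 letters of ATGCTCAA, as do 1 of 6 called higher and 5 of 32 not called, which is given as a description for the reason stated above.

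**Figure D5:**
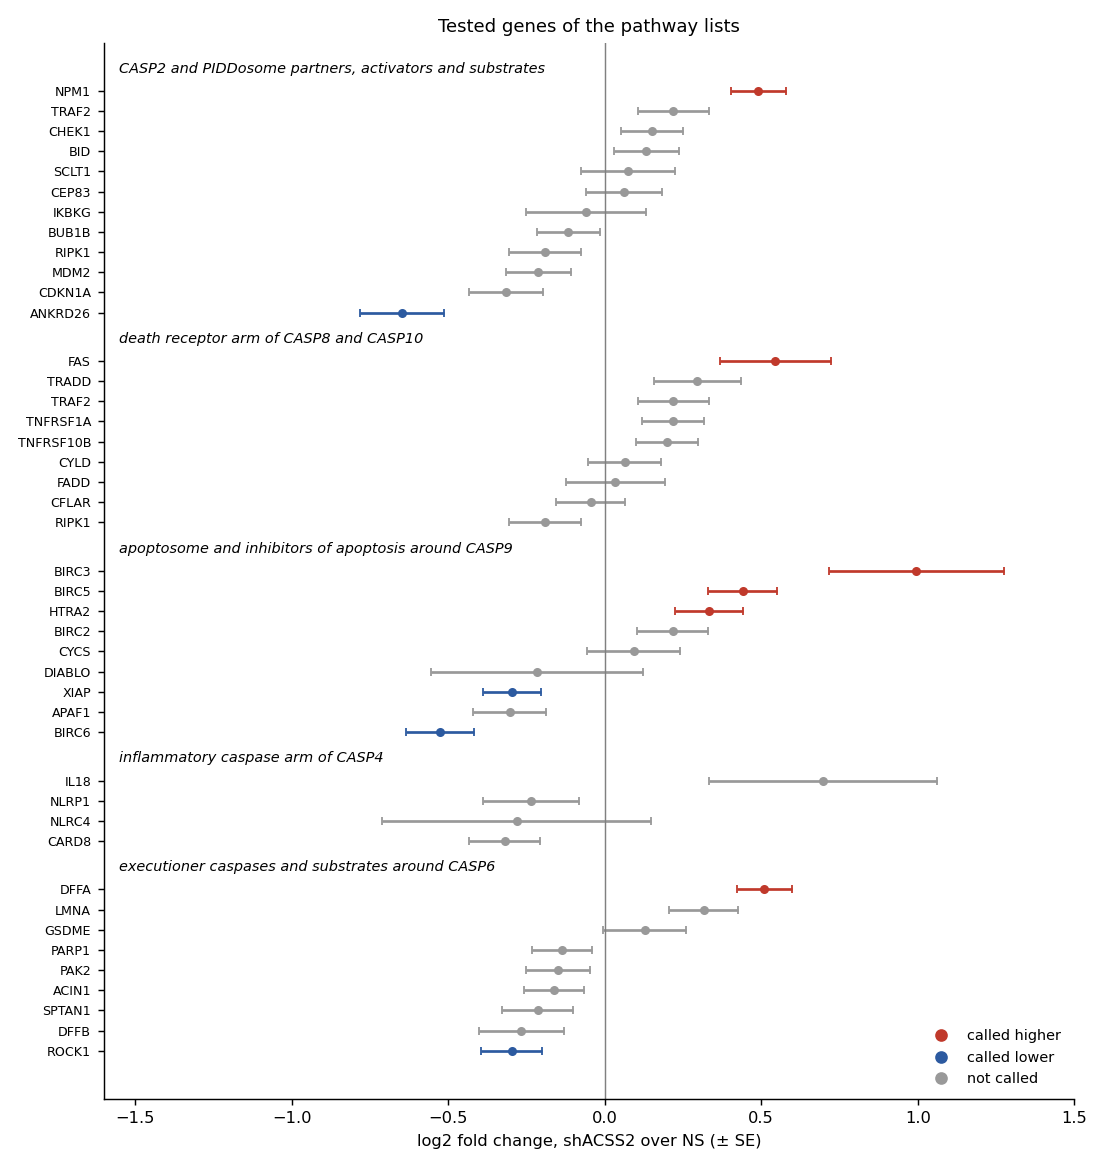
Log2 fold changes of shACSS2 over NS (points, with bars of 1 SE) for tested genes of the lists, in red where called higher, blue where called lower and grey where not called. BIRC3 at 1.00 lies farthest from 0 among the genes shown, and ANKRD26 at -0.65 is the lowest.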

How the data were processed

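RNA was sequenced from 6 libraries, 3 shACSS2 and 3 NS. The authors deposited unnormalised whole-number read counts for every gene. Per the submitters' processing notes, the build was hg19 and the tools were featureCounts 1.5.0-p3, HISAT2 2.0.5, fastp and DESeq2, listed there as version 4.3.1. The strand setting was not given in the sources used here, and neither was the handling of reads that match several places. Each of the 58735 identifiers occurs in GENCODE v29, an annotation of GRCh38, so the build of the alignment is uncertain. Coordinates, lengths and sequences here are GENCODE v29 by identifier. The identifiers restored 27 names. Every count column belonged to a sample. Replicates differed beyond sampling noise (chi-square per degree of freedom 3.88 to 14.6), so each library counted once.

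The test was the robust quasi-likelihood F test of edgeR 4.0.16 (R 4.3.3) with TMM factors, the default expression filter and no term besides group. P-values were adjusted by Benjamini-Hochberg across all 16210 genes and called at 0.05. Each standard error is the size of the log2 fold change divided by the root of its F statistic, and intervals are 95%. The script was tested on simulated data. DESeq2 1.42.0 and limma 3.58.1 (voom), other scalings and filters, a GC correction, a replicate block and leaving out each library were tried. Library depth, given with the results, limits the scarce genes, and floors and intervals cover counting error only where they are stated so.

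The genes, lists and tests were chosen with earlier results of these data known. Named genes are the 8 genes, ACSS2, every called gene of each list (some are not reported here) or the 2 of smallest p where none was called, the 5 genes closest to CASP2 and genes overlapping exons of the 8. Others, such as MDM2, CDKN1A and LMNA, were named for their role after their values were seen. Same-numbered replicates were not treated as pairs.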

Additional observations from a re-analysis of the deposited data

How the results depend on the processing

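CASP2, ANKRD26, NPM1, BIRC6, DFFA and ACSS2 kept their direction and their call under all 18 alternatives, and CASP2 stayed between -1.51 and -1.39. CASP2 was selected on these same libraries, so its kept call is no independent support. Against 2776 genes called, 4518 were called with the GC correction, 4711 with the replicate block and GC correction, 1010 at an adjusted p of 0.01 and 1018 to 3931 with 1 library left out. Of the 8 genes, 1 was called at 0.01 and 1 to 2 with 1 library left out, and CRADD was the gene lost. Of the 44 pathway genes, 20 were called with the GC correction, 6 at 0.01 and 6 to 16 with 1 library left out, against 12. Correlations of same-numbered deviations were -0.0428, -0.0664 and 0.112, and those of differently numbered ones ran from -0.123 to 0.158. The labels do not say that replicate numbers pair the libraries, and whether they do cannot be told from these values. The replicate block called 2923 genes. Genes not called changed sign with 1 library left out: PIDD1 ran from -0.25 to 0.0002, CASP10 from -0.12 to 0.0154 and CASP6 from -0.0313 to 0.23. CASP6 was -0.0065 with library totals, which move the median of all genes to -0.07. FAS lost its call with library totals and voom, HTRA2 with library totals, no filter and the block, and XIAP and ROCK1 with no filter and the block. CARD8 was called with library totals (adjusted p = 0.0305) and the GC correction (adjusted p = 0.0453), over a range of 0.0305 to 0.236. The cause of these changes was not tested. At this depth CASP4 and the other scarce inflammatory genes cannot be compared.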
